A study of Mus musculus with 12 samples.

Results

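To ask how far *Alkbh5*-deficient oocytes at the time of germinal vesicle breakdown (GVBD) still matched the arrested wild-type oocyte, the 2 KO libraries of the GVBD stage were compared with the 2 WT libraries of the germinal vesicle (GV) stage. These 4 libraries belong to a set of 12 RNA-seq libraries of mouse oocytes, 2 for each genotype at the GV, GVBD and metaphase II (MII) stages. WT GV oocytes came from juvenile, gonadotropin-primed wild-type females and were collected before culture. KO GVBD oocytes came from equally primed *Alkbh5*-/- females, which lack exon 1 with the start codon in every tissue, and were collected after a short culture. The labels name the stage, while the methods of the study describe collection by time in culture, and whether the nucleus of each KO oocyte had broken down is not given in the sources used here. Each library was a small pool of oocytes without zona pellucida. Genotype and culture time both differ between the 2 groups, so their effects cannot be told apart in these 4 libraries. The WT GVBD and KO GV libraries were therefore used as well, as described further on.

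ALKBH5 removes the methyl group of N6-methyladenosine (m6A) from RNA. The fully grown oocyte is transcriptionally silent and arrested in prophase of the first meiotic division, held there by cyclic AMP. When cyclic AMP falls, the kinase CDK1 with its cyclin B partner becomes active, the nuclear envelope breaks down, and stored messenger RNAs are translated and later degraded in a programmed order.

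The deposited values are counts of reads per gene. Total counts ranged from 28557742 to 40247810 over the 12 libraries. The 2 WT GV libraries held 36067277 and 28627380 counts and the 2 KO GVBD libraries 29968490 and 36483055. Between 22461 and 23857 genes had a count in these 4. Levels are given as spike-in scaled counts, meaning the count of a gene divided by the relative amount of synthetic ERCC RNA that was added to each tube. The 11 oocyte markers summed to 1308318 and 1200241 scaled counts in WT GV and to 1394458 and 972231 in KO GVBD. The 13 granulosa and cumulus markers summed to 1800 and 2138 in WT GV and to 3425 and 2040 in KO GVBD. Of the 10 tested, 2 were higher and 3 lower in KO GVBD at an unadjusted p under 0.05, while the defining *Amh* and *Foxl2* were at or near 0 in all 4. The 8 leukocyte markers summed to 1060 and 1723 in WT GV and to 744 and 747 in KO GVBD, with 1 higher and 4 lower of 7 tested. The theca and stroma markers summed to 369 and 2393 against 296 and 436, and the keratinocyte markers to 525 and 601 against 195 and 306. One library stood apart. The red blood cell and platelet markers summed to 207333 scaled counts in WT GV replicate 2, against 500 in WT GV replicate 1 and 206 and 282 in KO GVBD. Of the 8 libraries of the GV and GVBD stages, the 5 high ones were this library, both WT GVBD and both KO GV libraries. Striated muscle markers were likewise higher in WT GV replicate 2 (4261) and KO GVBD replicate 2 (5716) than in their partners (145 and 212). Haemoglobin differed accordingly. The beta-globin gene *Hbb-bs* had 156 and 49605 scaled counts in WT GV and 81.3 and 112 in KO GVBD. The part of these foreign transcripts in the results below was not tested. Totals of called genes are also given without WT GV replicate 2. Interval counts, zero counts and the counts within gene lists are given only with that library.

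**Figure D1:**
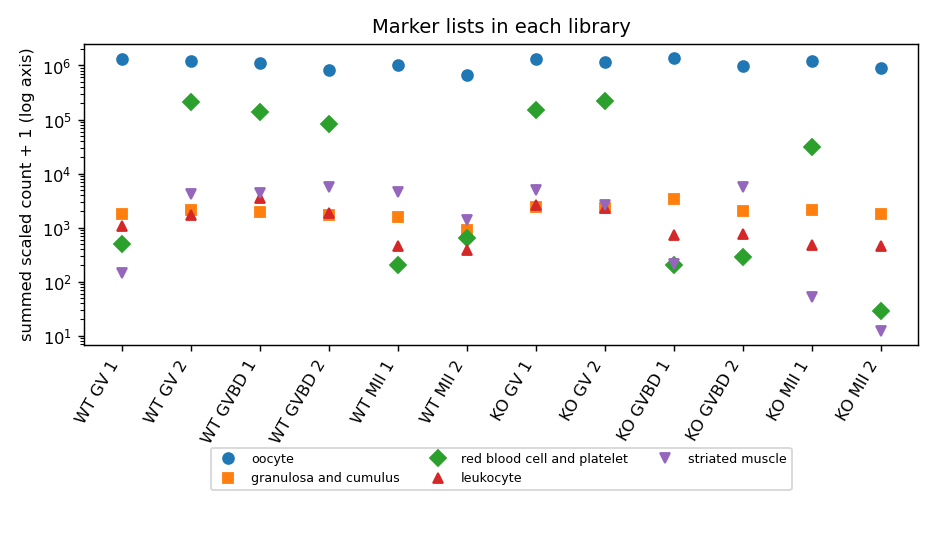
Summed spike-in scaled counts plus 1 (vertical, log axis) of 5 marker lists in each of the 12 libraries (horizontal), 1 point per list and library. Oocyte markers lie within 1 narrow band, whereas the red blood cell and platelet list spans from 500 to 207333 between the 2 WT GV libraries and stays at 206 and 282 in the 2 KO GVBD libraries.

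*Alkbh5* itself (chromosome 11, 60536381 to 60558512, plus strand, GRCm38) followed the genotype labels in all 12 libraries. The WT GV libraries held 5927 and 7934 scaled counts, the WT GVBD libraries 12736 and 4489, and the WT MII libraries 5212 and 2817. The KO GV libraries held 243 and 88.1, the KO GVBD libraries 82.8 and 116, and the KO MII libraries 87.8 and 47.4. Every KO value lay below every WT value. Between KO GVBD and WT GV the difference was -6.11 ± 0.35 (log2, SE, n = 2 each, 95% interval -6.96 to -5.26). Reads were counted over the whole gene, so the residual counts do not say which exons they came from. *Actb*, encoding cytoplasmic actin, had 2712 and 2214 scaled counts in WT GV and 2065 and 1590 in KO GVBD, a difference of -0.43 ± 0.25 with a 95% interval from -1.06 to 0.19.

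The pool of oocyte RNA was compared first. The ratio of endogenous to ERCC counts was 104.9 and 98.9 in the WT GV libraries (102 ± 4.24, SD, n = 2) and 121 and 98.5 in the KO GVBD libraries (110 ± 15.9, SD, n = 2). The mean ratio of KO GVBD was thus 1.08 times that of WT GV. The ratio is per tube, and reads as RNA per oocyte only where tubes held equal numbers of oocytes. The ranges overlapped, an exact two-sided permutation test gave p = 1, and with 2 against 2 libraries the smallest p it can give is 0.333. The ratio became 0.966 without KO GVBD replicate 1, so its direction rested on that library. For orientation, the ratio was 93.9 ± 26.3 in WT GVBD and 119 ± 11.6 in KO GV.

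Of 18809 genes tested with edgeR, none passed an adjusted p under 0.05 together with a 2-fold difference (percent called 0), and the smallest adjusted p was 0.0524. Before adjustment, 3623 genes (19.3%) had p under 0.05, of which 2572 were higher and 1051 lower in KO GVBD. The DESeq2 Wald test called 1395 genes, and edgeR with TMM scaling, which sets the bulk of genes equal between libraries, called 5. The call therefore depended on the tool, and a gene that missed the threshold is not shown to be equal. The median difference over all genes was 0.18 on the spike-in scale and -0.05 with TMM scaling, a shift of 0.22 between scalings, and values of that size have no direction that is independent of the scaling. Without WT GV replicate 2, where the lone WT GV library was assumed to vary like the others, 3 genes were called and 1975 had an unadjusted p under 0.05; without WT GV replicate 1, these were 7 and 2009.

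Closeness can be described by intervals. The estimated difference was smaller than 2-fold in 13766 genes (73.2%), whereas the whole 95% interval lay within 2-fold either way in 2438 genes (13.0%) and wholly beyond 2-fold in 392. These intervals are per gene and not adjusted for the number of genes, and no gene was called after adjustment. Without WT GV replicate 2 the share estimated within 2-fold was 65.8% of the genes tested there. Without WT GV replicate 1 it was 64.7%. The intervals narrowed with abundance. Of the 703 genes with a mean above 10000 scaled counts, 96.2% were estimated within 2-fold and 51.5% had their whole interval there. Of 7193 genes with a mean under 100, 60.0% were estimated within 2-fold and none had its whole interval there. In addition, 62 tested genes had 0 counts in both WT GV libraries and 101 had 0 in both KO GVBD libraries.

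The libraries were next compared pair by pair over 13273 genes after TMM scaling. A KO GVBD and a WT GV library lay within 2-fold of each other in 77.3% of genes on average over 4 pairs (range 73.8 to 81.2%). Replicates did so in 88.7% of genes in WT GV and 86.9% in KO GVBD, above all 4 of those pairs. For KO GVBD with KO GV libraries the share was 86.6% of genes (82.3 to 89.8%), every pair lying above every pair with WT GV. With WT GVBD it was 75.7% (72.6 to 78.4%), a range that overlapped the one for WT GV. With WT MII the share was 50.2% and with KO MII 58.1%. Mean Pearson correlations of log2 levels across genes were 0.907 for KO GV (0.892 to 0.920), 0.887 for WT GV (0.847 to 0.912) and 0.863 for WT GVBD (0.843 to 0.886), with ranges that overlapped between neighbours. By the edgeR test, 0 genes passed an adjusted p of 0.05 and 2-fold against WT GV, 42 of 19064 against KO GV (0.22%) and 494 of 19462 against WT GVBD (2.54%). These comparisons share the KO GVBD libraries, and the order of their counts is not that of the shares. The pairs share libraries and the genes are not independent replicates, so no test was made.

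**Figure D2:**
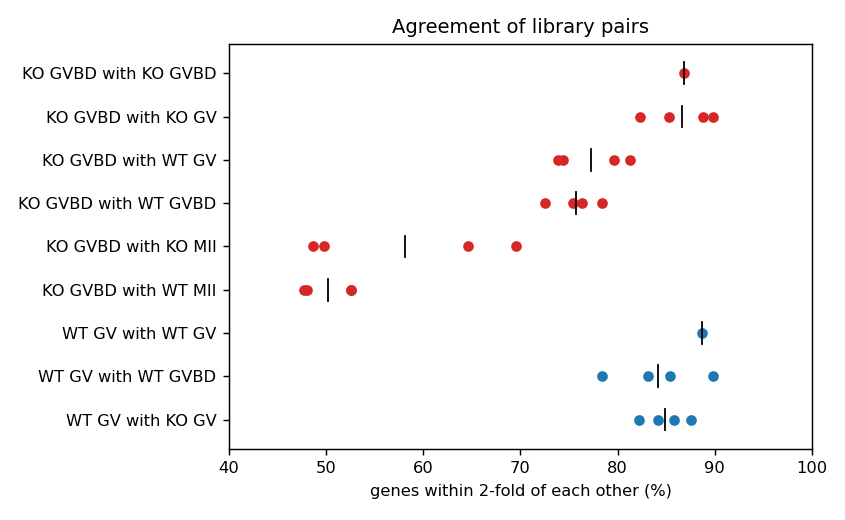
Share of 13273 genes within 2-fold of each other (horizontal, %) for pairs of libraries from the groups named at the left, 1 point per pair with the mean as a bar; red rows hold KO GVBD. The 4 pairs of KO GVBD with WT GV (73.8 to 81.2%) lie below the 4 pairs with KO GV and overlap those with WT GVBD.

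To separate genotype from time, the 8 libraries of the GV and GVBD stages were fitted together. In this fit the KO GVBD minus WT GV difference is the exact sum of a genotype part, the average of KO minus WT at both stages, and a time part, the average of GVBD minus GV in both genotypes. The genotype part called 233 of 21371 genes (1.09%), 155 higher (0.725%) and 78 lower (0.365%) in KO, and with TMM scaling 373 genes, 110 higher and 263 lower. The time part called 3 genes (0.014%), 2 higher and 1 lower at GVBD. Of these, only *Gatad2a* changed in both genotypes. *4930548H24Rik* changed by 5.32 (log2) in KO against 0.19 in WT, and *Mir7035* by -8.61 in WT against 0.12 in KO. Before adjustment 4577 genes (21.4%) had p under 0.05 in the genotype part and 1605 (7.51%) in the time part, and DESeq2 called 1233 and 231. The genotype part also spread more widely over the 18809 genes of the main comparison, with an SD of 0.96 against 0.73 and with 3422 against 1943 genes at or past 2-fold, while the median SE of a gene was 0.37 for either. Among the 3623 genes with an unadjusted p under 0.05 between KO GVBD and WT GV, the genotype part was the larger of both in 2973 (82.1%), against 65.2% of all genes. Those genes were selected on the sum of both parts, so a higher share for the wider part follows from the selection and is no separate evidence. The sizes and the 2-fold counts were not centred on the medians of the parts, 0.31 for genotype and -0.10 for time. The 233 calls depended on single libraries. They became 19 without KO GVBD replicate 1, 28 and 30 without either KO GV library, 52 without WT GV replicate 2, 93 without KO GVBD replicate 2, 113 without WT GV replicate 1, 151 without WT GVBD replicate 2 and 1423 without WT GVBD replicate 1. The 3 time calls became 34 without WT GV replicate 1, 5 without WT GVBD replicate 2, 1 without KO GVBD replicate 1 and 0 without KO GV replicate 2.

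**Figure D3:**
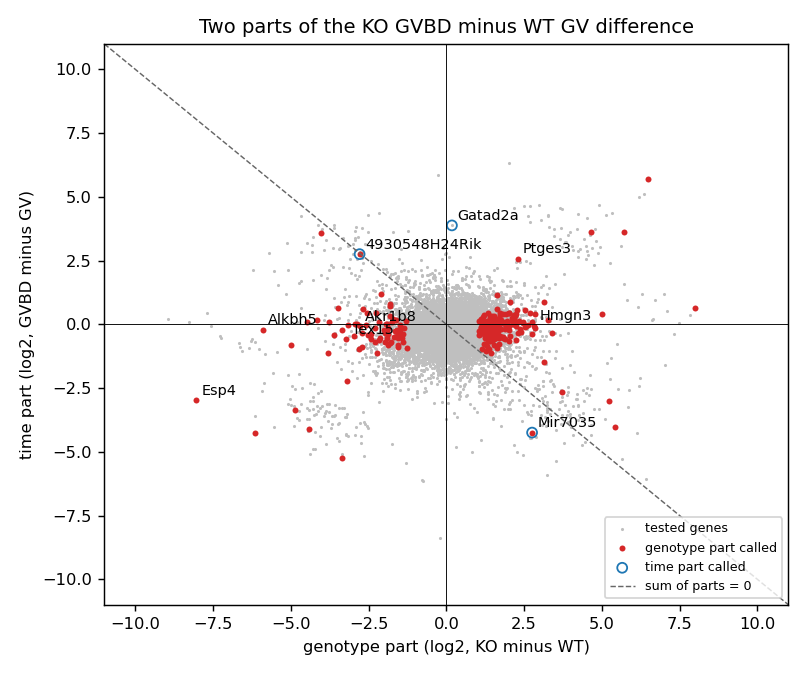
Genotype part (horizontal, log2, KO minus WT) against time part (vertical, log2, GVBD minus GV) of each of the 18809 genes tested between KO GVBD and WT GV. Red points passed the test of the genotype part and blue rings that of the time part; on the dashed line both parts cancel, so that KO GVBD equals WT GV. The cloud is wider along the genotype axis, *Gatad2a* stands high on the time axis, and *Alkbh5* lies far to the left.

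When the same KO GVBD minus WT GV difference was read from the 8-library fit, in which more libraries inform the spread, 20 genes were called (0.0936%), 7 higher and 13 lower. This reading was added after the values had been seen. Among the higher genes was *Gatad2a* (chromosome 8, 69907076 to 69996384, minus strand), which encodes a subunit of the NuRD chromatin remodelling complex. It had 187 and 224 scaled counts in WT GV and 3566 and 3286 in KO GVBD. WT GVBD libraries had 4737 and 2102 and KO GV libraries 238 and 286, so that both genotypes were high at the GVBD time and low at GV, with no overlap. Its difference was 4.06 ± 0.44 (adjusted p = 0.026 in the 8-library fit), nearly all of it in the time part (3.88 ± 0.31, adjusted p = 0.004). At MII it had 2448 and 193 in WT and 2729 and 130 in KO, with replicate 1 high and replicate 2 low in either genotype.

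*Ptges3* (chromosome 10, 128058954 to 128077272, plus strand), encoding the HSP90 co-chaperone p23, was high in KO GVBD alone among the groups of the GV and GVBD stages. It had 96.3 and 146 scaled counts in WT GV, 415 and 124 for WT GVBD, 178 and 262 in KO GV and 3847 and 3179 in KO GVBD. The difference from WT GV was 4.86 ± 0.61 (edgeR, 8 libraries, adjusted p = 0.038). Its MII levels were again high in replicate 1 and low in replicate 2, with 2052 and 191 in WT and 3867 and 333 in KO. *Fam177a* was at 0 in both WT GV libraries and had 828 and 554 scaled counts in KO GVBD, at least 190 times higher against a floor of 3 counts per library. WT GVBD held 582 and 57.8 and KO GV held 579 and 513. At MII it had 0 and 35.1 in WT and 372.5 and 203.8 in KO, so WT GVBD replicate 1 was the only WT library within the range of the KO libraries. *Fam241b* had 516 and 497 scaled counts in WT GV and 4169 and 2877 in KO GVBD, beside 3539 and 1750 in WT GVBD and 3685 and 3602 in KO GV.

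*Nfkbiz*, encoding an atypical IκB protein of NF-κB signalling, followed genotype. It had 265 and 280 scaled counts in WT GV, 612 and 357 for WT GVBD, 1751 and 1414 in KO GV and 1868 and 1934 in KO GVBD. All KO values exceeded all WT values of these stages, and the genotype part was 2.26 ± 0.26 (edgeR adjusted p = 0.009). *Kyat3* (chromosome 3, 142701051 to 142746870, plus strand), a kynurenine aminotransferase gene, showed the same order, with 923 and 647 in WT GV, 1431 and 891 for WT GVBD, 3889 and 3018 in KO GV and 4546 and 4156 in KO GVBD.

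The genes lower in KO GVBD formed a second such group. *Akr1b8* (chromosome 6, 34354119 to 34368463, plus strand), encoding an aldo-keto reductase, had 3156 and 3059 scaled counts in WT GV and 460 and 403 in KO GVBD. WT GVBD had 2693 and 3749 and KO GV 486 and 494, so the KO oocyte was already low at GV. Its difference from WT GV was -2.85 ± 0.32 (edgeR, 8 libraries, adjusted p = 0.026), with a genotype part of -2.78 ± 0.23 and a time part of -0.07 ± 0.21. *Tex15*, a gene of meiotic recombination and transposon silencing in germ cells, had 4219 and 4277 in WT GV and 183 and 420 in KO GVBD, with 4752 and 2590 in WT GVBD and 774 and 411 in KO GV. The genotype part was -3.22 ± 0.36. *Hilpda*, encoding a lipid droplet protein, had 1480 and 746 in WT GV and 89.0 and 92.5 in KO GVBD. The long noncoding *Dleu2* had 1701 and 3994 in WT GV and 239 and 178 in KO GVBD, and the lincRNA *AC132253.6* had 12526 and 13080 against 2115 and 1251. In all 5 genes the KO GV libraries were also below both WT groups.

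Other genes had their lowest values of the GV and GVBD stages in KO GVBD. *Nkrf* (chromosome X, 36887540 to 36902899, minus strand), encoding a repressor of NF-κB, had 406 and 372 scaled counts in WT GV, 937 and 294 for WT GVBD, 352 and 277 in KO GV and 10.7 and 7.2 in KO GVBD. *Ctla2a*, encoding a cysteine protease inhibitor, had 162 and 637 in WT GV, 846 and 870 in KO GV and 16.9 and 14.4 in KO GVBD. *Rgs18*, a regulator of G protein signalling best known from blood platelets, had 54.2 and 60.5 in WT GV, 165 and 261 in KO GV and 0 in both KO GVBD libraries, at least 14.9 times lower than WT GV. The zinc finger gene *Zfp825* was at 0 in KO GVBD against 215 and 192 in WT GV (at least 52.9 times lower), with 104 and 17.9 in KO GV. *Esp4*, of the exocrine gland secreted peptide family, was at 0 against 273 and 349 (at least 80.9 times lower), with 6.8 and 13.1 in KO GV. *Zfp825* and *Esp4* belong to families with close copies, between which uniquely mapped reads may be lost.

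**Figure D4:**
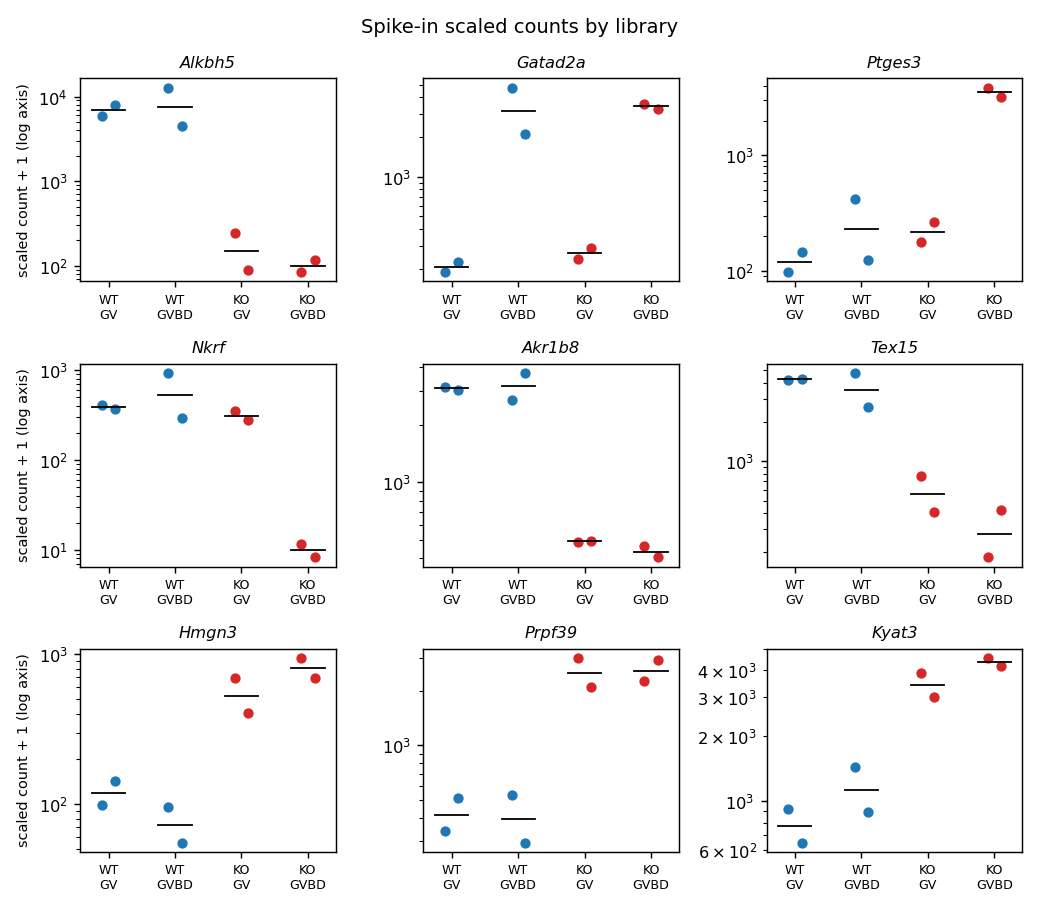
Spike-in scaled counts plus 1 (vertical, log axis) of 9 genes in the 8 libraries of the GV and GVBD stages, 1 point per library, WT in blue and KO in red, with the geometric mean of each pair as a bar. *Gatad2a* separates the stages, *Akr1b8*, *Tex15*, *Hmgn3*, *Prpf39* and *Kyat3* separate the genotypes, and *Ptges3* and *Nkrf* set KO GVBD apart from the other 3 groups.

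Since no gene passed in the main comparison, the rule for named genes was applied to the genotype part. For the highest and lowest values it kept called genes of at least median abundance whose WT and KO scaled counts did not overlap and that carry a full gene name. Among its higher genes *Hmgn3*, encoding a nucleosome-binding protein, had 97.4 and 141 scaled counts in WT GV and 943 and 696 in KO GVBD, with a genotype part of 2.83 ± 0.35 (edgeR adjusted p = 0.012). *Prpf39*, a splicing factor gene, had 339 and 512 against 2246 and 2952 (2.62 ± 0.30, adjusted p = 0.009). Both were also high in KO GV and low in WT GVBD. *Slc38a1*, a glutamine transporter gene, had 149 and 203 against 1232 and 651. The guanine nucleotide exchange factor gene *Dock3* had 2812 and 2373 against 9269 and 7586. *Armc3*, *Col4a6*, *Defb41*, *March11*, *Men1* and *Fxyd6* were the other genes named for a high genotype part within this filter, and called genes outside it, such as *Fam177a* with 6.48, had higher values. *Men1* had replicates far apart in WT GV, with 267 and 53.9 scaled counts. Among abundant genes, *Arg2*, encoding the mitochondrial arginase, had 22565 and 23786 scaled counts in WT GV and 56441 and 37185 in KO GVBD. *Dpys*, of pyrimidine breakdown, had 8162 and 7301 against 15960 and 18306, and *Cth*, of cysteine synthesis, 3613 and 2303 against 7722 and 6063. The G protein gene *Gna14* had 6406 and 6908 against 16267 and 16599. *Cd160* and *Fcgbp* had genotype parts of 1.03 ± 0.21 and 1.41 ± 0.24.

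In some called genes the 2 parts were of opposite sign, and KO GVBD and WT GV had similar levels. *Gstt2*, a glutathione transferase gene, had 8298 and 4646 scaled counts in WT GV, 1537 and 1397 for WT GVBD, 8074 and 6572 in KO GV and 8147 and 6879 in KO GVBD. *Nr1d1*, encoding the clock repressor REV-ERBα, had 7238 and 5044 in WT GV, 1643 and 1948 for WT GVBD, 8434 and 7297 in KO GV and 7301 and 6527 in KO GVBD. In both genes the WT GVBD libraries were the low ones. The difference between KO GVBD and WT GV was 0.22 ± 0.33 for *Gstt2* and 0.17 ± 0.26 for *Nr1d1*, and both turned slightly negative with TMM scaling or without WT GV replicate 2. *Pabpn1l*, an oocyte poly(A)-binding protein gene needed for maternal mRNA clearance, was partway, with 11893 and 10257 in WT GV, 3815 and 4248 for WT GVBD, 17851 and 16850 in KO GV and 23720 and 14741 in KO GVBD. *Fut10*, a fucosyltransferase gene, had 18.8 and 34.2 in WT GV and 24.5 and 14.4 in KO GVBD, against 8126 and 4256 in WT GVBD, so its genotype part of -4.03 ± 0.57 rested on the WT GVBD libraries. Among called genes that passed the same filter, *Esp4*, *Alkbh5*, *Olfr1369-ps1*, *Raet1e* and *Tex15* had the lowest genotype parts. *Marc2*, of the mitochondrial amidoxime reducing system, had 9986 and 8336 in WT GV and 3095 and 1783 in KO GVBD. *Raet1d*, *Raet1e* and *Xlr3c* have near-identical relatives, and their split of reads is uncertain.

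The genes that drive and restrain meiotic resumption were then read in the main comparison, where none was called. Beside each list stands the background of all genes, in which 13.7% were higher and 5.59% lower at an unadjusted p under 0.05, with a median of 0.18. This background varied with abundance. At a mean under 100 scaled counts the median was -0.10, and 7.69% passed in either direction. The values were 0.27 and 23.5% at 100 to 1000, 0.37 and 33.9% at 1000 to 10000, and 0.08 and 13.1% above 10000. The lists were not compared with genes of like abundance. Of 18 tested genes of entry into M phase, 5 were higher at that unadjusted level and none lower, and the median was 0.50. *Cdk1*, the kinase that starts M phase, had 3635 and 3561 scaled counts in WT GV and 5708 and 4164 in KO GVBD (0.46, 95% interval -0.15 to 1.07). Its partner *Ccnb1* had 38698 and 35914 against 49097 and 33817, groups that overlapped (0.15, interval -0.51 to 0.81, and -0.09 with TMM scaling). *Cdc25a*, an activating phosphatase, had 361 and 422 against 1770 and 692. *Wee1* and *Wee2*, which encode kinases that hold CDK1 inactive, had 152 and 250 against 434 and 481, and 18737 and 18222 against 40752 and 20498. In *Cdc25a*, *Wee1* and *Wee2* the groups did not overlap, although *Wee2* did not pass at the unadjusted level. With 2 libraries per group, an exact permutation test of such a separation gives no p below 0.333. Its share over all genes was not counted. *Ccnb3*, *Aurka* and *Mastl* had differences of -0.31, -0.04 and -0.06.

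Of 15 genes of prophase arrest and cyclic AMP, 4 were higher at the unadjusted level and none lower (median 0.53). *Gpr3*, the receptor that keeps cyclic AMP high, had 90.8 and 120 scaled counts in WT GV and 267 and 186 in KO GVBD. *Pde3a*, the phosphodiesterase that breaks it down, had 1457 and 1475 against 2983 and 2543 (0.91, 95% interval 0.36 to 1.47). *Adcy9*, an adenylyl cyclase, had 152 and 137 against 322 and 390. In these 3 genes the groups did not overlap, a weak criterion with 2 libraries each whose share over all genes was not counted. Of 23 genes of the spindle checkpoint and the anaphase-promoting complex, 6 were higher and 1 lower (median 0.22). The activator *Cdc20* had 1875 and 1784 against 3787 and 2490, and the inhibitor *Fbxo5* 1948 and 2040 against 4500 and 2492. Of 8 genes of the MOS-MAPK cascade, *Map2k1* was higher at the unadjusted level, with 2705 and 2593 against 5275 and 3761, and *Mos*, which starts the cascade, had 7184 and 5883 against 10575 and 7310.

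Genes of maternal RNA control gave a similar picture. Of 29 genes of mRNA clearance, 8 were higher and 2 lower at the unadjusted level (median 0.45). *Btg4*, the adaptor that brings the CCR4-NOT deadenylase to maternal mRNAs, had 93163 and 100870 scaled counts in WT GV and 145283 and 92169 in KO GVBD, which overlapped (0.29, 95% interval -0.43 to 1.01). The CCR4-NOT subunits *Cnot8* and *Cnot11* had 1461 and 1651 against 4217 and 2661, and 2184 and 2718 against 4991 and 4968. The deadenylase gene *Parn* had 463 and 375 against 1167 and 760. *Zfp36l2*, which encodes an AU-rich element binder of the oocyte, went the other way, with 96.3 and 234 against 53.7 and 46.2. Of 27 genes of cytoplasmic polyadenylation and translation control, 8 were higher and 1 lower (median 0.41). *Cpeb1*, which binds polyadenylation elements, had 6313 and 6145 against 9990 and 9482 (0.64, 95% interval 0.12 to 1.17), and the poly(A) polymerase gene *Papola* 1440 and 1438 against 3770 and 3224. *Lsm14a* and *Eif4enif1*, of translational repression, had 2695 and 3037 against 6794 and 5710, and 5045 and 4342 against 9956 and 8436.

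Of 20 other m6A writers, erasers and readers, 5 were higher and none lower at the unadjusted level (median 0.23). The writer subunit *Mettl14* had 456 and 322 scaled counts in WT GV and 1035 and 714 in KO GVBD. The readers *Ythdf2* and *Ythdf3* had 2424 and 2930 against 4950 and 4668, and 1329 and 1690 against 2928 and 2590. Among the IGF2BP readers, *Igf2bp3* had 1481 and 1130 against 3237 and 2993 (1.25, 95% interval 0.65 to 1.86), whereas *Igf2bp2* had 2718 and 2772 against 3074 and 3129 (0.18, interval -0.34 to 0.69, and -0.04 with TMM scaling). The interval for *Igf2bp2* lies within 2-fold either way. *Mettl3*, the catalytic writer, had a difference of 0.06 (interval -0.61 to 0.73), which turned negative with TMM scaling. *Fto*, the other eraser, had 0.76 (interval -0.18 to 1.69).

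Of 30 genes of oocyte identity and maternal effect, 4 were higher and 1 lower (median 0.24). *Lhx8*, an oocyte transcription factor gene, had 1260 and 1488 scaled counts in WT GV and 3970 and 3876 in KO GVBD (1.51, 95% interval 0.96 to 2.07), and *Trim28*, of imprint protection, 1671 and 1629 against 3269 and 3595. *Nlrp4f*, of the subcortical maternal complex, was the lower one, with 55342 and 51912 against 27650 and 25454 (-1.01, interval -1.56 to -0.47). These 3 genes did not overlap between groups, again a weak criterion with 2 libraries each, and its share over all genes was not counted. *Dppa3*, a maternal effect gene, had 431004 and 492462 against 330891 and 345034, and *Bmp15*, an oocyte growth factor gene, 34425 and 34945 against 63127 and 39713. Of 30 spindle and kinetochore genes, 7 were higher and 1 lower (median 0.26). *Incenp*, of the chromosomal passenger complex, had 1068 and 558 against 2436 and 2350, *Ska1* had 956 and 970 against 2531 and 2125, and the kinetochore gene *Ndc80* was lower with 3614 and 3282 against 1997 and 2308. Of 9 condensin and topoisomerase genes, 2 were higher and 1 lower (median 0.25), the lower being the condensin II gene *Ncapd3* with 3762 and 3614 against 1741 and 2303.

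Other lists had a median below that of all genes. Of 19 stress and immediate early genes, 2 were higher and 1 lower at the unadjusted level, and the median was -0.43. *Atf4*, of the integrated stress response, had 1572 and 1665 scaled counts in WT GV and 5688 and 3087 in KO GVBD, and the p53 antagonist *Mdm2* 775 and 626 against 2009 and 2306. *Jun* was lower at a low level, 56.4 and 117 against 18.4 and 24.7. Cytosolic ribosomal protein genes had a median of -0.04 over 82 genes, with 1 higher and 4 lower, and oxidative phosphorylation genes a median of -0.01 over 84 genes, with 5 higher and 9 lower. The 13 mitochondrially encoded mRNAs had a median of -0.09, with none higher and 1 lower. The listed genes *Igf2bp1*, *Sohlh1*, *Rec8* and *Hspa1a* were too low to be tested. In all, 10 of these 14 lists had a median above that of all genes. Genes at 100 to 1000 and at 1000 to 10000 scaled counts also had medians above it, 0.27 and 0.37. The lists were not matched for abundance, so this count does not set them apart from genes of like level. With TMM scaling the median of all genes was -0.05, and all lists moved down with it.

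**Figure D5:**
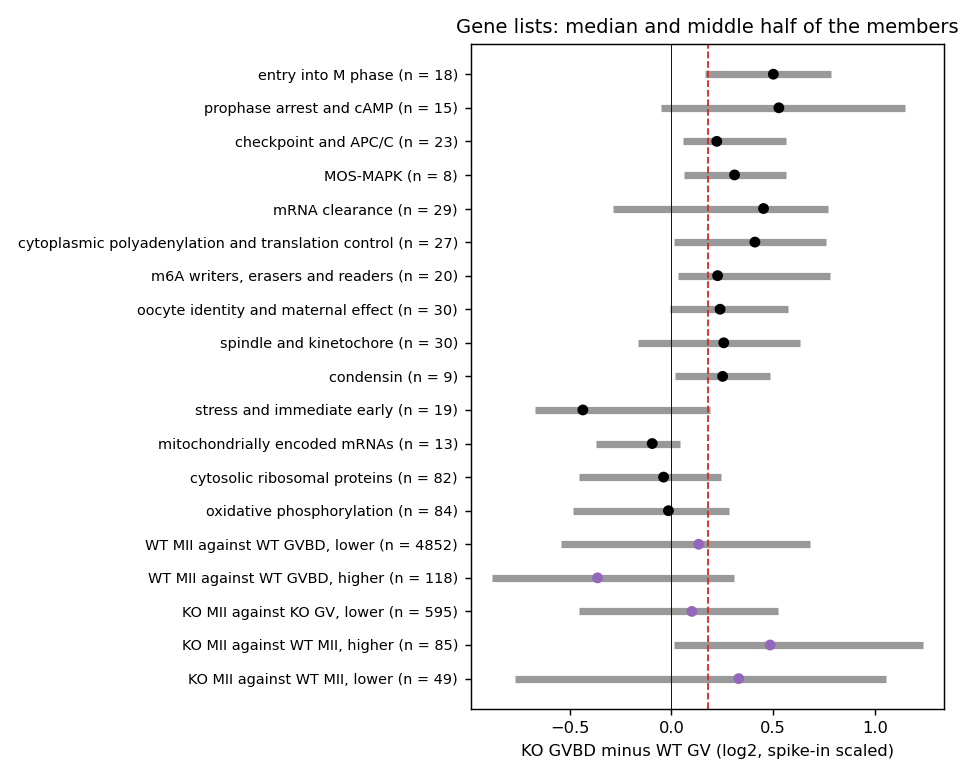
KO GVBD minus WT GV (horizontal, log2, spike-in scaled) for gene lists, with the median of the tested members as a point and their interquartile range as a bar; black points are pathway lists and purple points lists taken from other libraries. The red dashed line is the median of all genes, 0.18, which the list of entry into M phase exceeds with 0.50 and the genes higher at WT MII than WT GVBD fall below with -0.36.

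Genes that move late in maturation were defined from libraries outside the comparison, and their KO GVBD and WT GV values were read afterwards. The study's methods describe reverse transcription of polyadenylated mRNA, so a lower count at MII does not by itself show loss of the RNA. Nor does a higher count at the GVBD time, as in *Gatad2a* and *Ptges3*, by itself show a gain of RNA. Genes called lower in WT MII than in WT GVBD (27.1% of genes tested there, of which 4852 were tested here) are those whose counts fell late. Their median was 0.13, with 734 higher (15.1%) and 387 lower (7.98%) at an unadjusted p under 0.05, beside 13.7% and 5.59% of all genes. Genes called lower in KO MII than in KO GV (3.28%, 595 tested here) had a median of 0.10, with 63 higher (10.6%) and 59 lower (9.92%). Genes called higher in WT MII than in WT GVBD (0.682%, 118 tested here) had a median of -0.36, with 11 higher (9.32%) and 15 lower (12.7%). Genes called higher in KO MII than in WT MII (0.501%, 85 tested here) had a median of 0.49, with 25 higher (29.4%) and 8 lower (9.41%). The lowest value of this list, -9.47, is also the lowest of the red blood cell and platelet markers. Those markers summed to 30526 and 28 scaled counts in KO MII and to 199 and 641 in WT MII. The 49 tested genes of those called lower in KO MII (0.302%) had a median of 0.33, with 2 higher (4.08%) and 7 lower (14.3%). Their lowest value, -6.11, is that of the deleted gene *Alkbh5*. Over the whole table, the mirror comparison of KO GV with WT GVBD, which uses none of the 4 libraries, correlated with the KO GVBD minus WT GV difference across 18809 genes with Pearson's r = 0.26 and Spearman's rho = 0.26, a description across genes that are not independent replicates. In that comparison genotype runs the same way and time the opposite way.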

How the data were processed

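The deposited gene table holds raw counts per gene and library, which the authors made by trimming with Cutadapt (1.9 in the submitters' processing notes), aligning with HISAT2 (2.0.4) to mm10 joined to the ERCC sequences, keeping unique alignments and running StringTie (1.3.4d). The step that gave whole-number counts, the annotation release and the use of strand are not given in the sources used here. The sample labels and the study's methods describe different library preparations. Amplified reads carry no molecular identifiers, so counts and any interval from them do not stand for separate molecules, and unique mapping lowers genes with close copies. All 12 columns matched a sample, and 0 were left unmapped.

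Counts were tested with edgeR 4.0.16 (quasi-likelihood, two-sided, R 4.3.3), with library sizes in proportion to summed ERCC counts, filterByExpr, Benjamini-Hochberg adjustment over all tested genes, and calls at adjusted p under 0.05 and a log2 difference of at least 1. The main fit held 4 libraries. The genotype and time parts came from 8. p-values measure the spread between 2 pools per group. Similarity used TMM-scaled log2 counts (0.5 added) of genes averaging 50 counts or more. Named genes are *Alkbh5*, *Actb*, members of pathway lists, and called genes with a full gene name. Of these, the 10 highest and 10 lowest were at or above median abundance and without overlap. The 10 most abundant per direction were taken without the abundance and overlap filters. Lists and members were chosen with earlier results of these data known. Alternatives were DESeq2 1.42.0, TMM or median-of-ratios scaling, only ERCC sequences reaching 10 counts, no filter or a minimum of 10 counts in all libraries fitted, fits of all 12 libraries, no fold minimum, the replicate number as a block, and removal of single libraries. The 8-library reading and the interaction of time with genotype were added after the data were seen. The statistics were tested on simulated data. Gene positions come from GENCODE M21 (GRCm38).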

Additional observations from a re-analysis of the deposited data

Results flagged for a closer look

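For 2 of 21371 tested genes the change from GV to GVBD differed between genotypes by the interaction test in the 8-library edgeR fit. With TMM scaling there were 3. Before adjustment, 1579 genes had p under 0.05. *4930548H24Rik* had 2027 and 2026 scaled counts in WT GV, 3105 and 1520 for WT GVBD, 40.8 and 57.1 in KO GV and 1962 and 1990 in KO GVBD. Its change in KO exceeded that in WT by 5.13 ± 0.57 (log2, SE, adjusted p = 0.044), and KO GVBD differed from WT GV by -0.04 ± 0.21. It overlaps *4930566F21Rik* on the opposite strand, and the use of strand in counting is not given. *Mir7035* had 574 and 328 in WT GV, 1.3 and 0.8 for WT GVBD, 141 and 154 in KO GV and 147 and 174 in KO GVBD, a difference of changes of 8.74 ± 0.82 (adjusted p = 0.0177). This microRNA gene lies within *Rasa4* on the same strand, so its reads cannot be told apart from those of its host.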

How the results depend on the processing

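The count of genes called between KO GVBD and WT GV, 0 in the main fit, was 5 with TMM and 5 with median-of-ratios scaling, 942 with no filter on low counts, 55 with at least 10 counts in every library, 1395 with DESeq2, 1 with all 12 libraries, 20 with 8 libraries and 64 with 8 libraries and TMM scaling. Leaving out 1 library gave 0 to 7. The genotype part, 233 genes, gave 373, 371, 1594, 1169, 1233 and 26 under the first 6 of these settings, and 19 to 1423 without 1 library. The time part, 3 genes, gave 484 with no filter, 139 with at least 10 counts, 231 with DESeq2, 0 with all 12 libraries, and 0 to 34 without 1 library. The ratio of endogenous to ERCC counts ranged from 0.966 to 1.19 without 1 library, reversing at 0.966. The replicate block gave 3, 108 and 1 calls; the same-numbered libraries of WT GV and KO GVBD deviated together with r = 0.09, so the numbers are not shown to pair them.

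Named genes with small differences turned sign. With TMM, median-of-ratios, block with TMM and 8-library TMM scaling, *Ccnb1* gave -0.087, -0.086, -0.092 and -0.090, *Igf2bp2* -0.038, -0.037, -0.044 and -0.038, *Nr1d1* -0.055, -0.052, -0.028 and -0.056, and *Mettl3* -0.17, -0.16, -0.15 and -0.17, while *Gstt2* gave -0.016, -0.013 and -0.018 without the block. Leaving out 1 library gave -0.14 to 0.40 for *Ccnb1*, -0.074 to 0.58 for *Btg4*, -0.14 to 0.69 for *Gstt2*, -0.066 to 0.46 for *Nr1d1*, -0.87 to 0.042 for *Fut10* and -0.15 to 0.30 for *Mettl3*. Of the other values of named genes, 1045 of KO GVBD minus WT GV, 461 of the genotype part and 36 of the time part kept direction and side of the threshold, 156 passed it, and 166 and 17 lost it. The cause was not tested. No gene averaging under 100 scaled counts had its whole 95% interval within 2-fold, and whether depth or the spread between pools sets this was not tested.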

Other observations

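Protein-coding genes with short transcripts differed from long ones in the KO GVBD minus WT GV comparison. The median was -0.22 for 476 genes with up to 1000 exonic bases, 0.15 for 1704 genes above that and up to 2000, 0.31 for 4120 genes up to 4000 and 0.23 for 7614 longer genes. With TMM scaling these medians were -0.43, -0.08, 0.09 and 0.01. The gap junction gene *Gja1* had 219 and 278 scaled counts in WT GV and 44.5 and 61.7 in KO GVBD. *Esr2*, encoding oestrogen receptor beta, had 12756 and 13110 in WT GV and 1535 and 998 in KO GVBD, and its difference was -3.35 ± 0.30 (edgeR adjusted p = 0.086, and 0.042 with TMM scaling). It and *Gja1* were chosen after their values were seen.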
